A study of Rattus norvegicus with 6 samples.

Results

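Microglia and macrophages were followed through 35 genes in brain RNA of SPORTS and wild type rats, chosen by name as genes that mark these cells or act in them. On the array, 15168 genes carried a RefSeq symbol, and all 35 were among them with 41 probes, of which 6 genes had 2 probes each. The 35 genes comprised 6 homeostatic microglia genes, 6 genes for the macrophage growth factor receptor, the DAP12 receptor pair and transcription factors, 5 complement C1q and lysosome genes, 8 genes of innate sensing, Fc receptors and the phagocyte oxidase, 5 pan-leukocyte genes, 4 border macrophage genes and the neutrophil granule gene Camp. The SPORTS group held 3 male rats of the SPORTS line, a hyperactive mutant on the Wistar background, and the wild type group held 3 male wild type rats on the same background. All were 15 weeks old and sedentary, so no group had run, and neither the mutated gene nor a brain region is given. Each rat gave 1 single-colour Agilent array of total RNA.

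Microglia are the resident macrophages of the brain parenchyma. They arise early from the yolk sac, depend on signalling through the receptor CSF1R, and in the undisturbed brain express a set of surface genes, among them P2ry12, Cx3cr1 and Tmem119, that is called homeostatic because it declines when the cells are activated. Macrophages at the borders of the brain, in the meninges, around vessels and in the choroid plexus, share many genes with microglia but carry markers such as Mrc1 and Cd163. Pan-leukocyte genes such as Ptprc are made by microglia, border macrophages and blood leukocytes alike.

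All signals below are on a log2 scale relative to the array's own 75th percentile, and a positive difference means a higher signal in SPORTS than in wild type. They can be compared between arrays for 1 probe but not between probes. Each array had 20325 to 23261 of its 30367 probes well above background, with 0 saturated spots. Wild type replicates 1 and 2 lay in row 1 of the slide, and wild type replicate 3 and all 3 SPORTS arrays lay in row 2, so a comparison that allows for the row rests on 1 wild type array. Over all 11032 tested genes, 12.9% were higher and 11.4% lower in SPORTS, 24.3% in all (limma, Benjamini-Hochberg adjusted p under 0.05). A fit with the row as a block called 4.03% higher and 4.31% lower, 8.34% in all. Of the calls, 53.1% were higher in SPORTS, against 42.6% when each array was centred on its median. Regional markers differed widely between the groups: all 11 tested markers of striatal projection neurons were lower in SPORTS, with a median difference of -1.86 (Rgs9, a striatal signalling regulator, by -2.77 ± 0.10, adjusted p = 0.000108). Of these markers, Drd1 was well above background on 1 SPORTS and 3 wild type arrays, so it was tested only through wild type. SPORTS replicate 1 stood apart in choroid plexus markers, whose summed signal was 6.10 there, 7.01 and 7.19 in the other SPORTS arrays and 7.04 to 7.13 in wild type.

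Of the 35 genes, 30 were tested, and each of these was well above background on all 6 arrays. Among them 7 were higher and 3 were lower in SPORTS, beside the 12.9% and 11.4% of all genes. The higher genes were Camp, Fcgr3a, Ly86, Cd14, Ptprc, Cd53 and Lyz2, and the lower ones were Fcrl2, Tmem119 and Trem2. In 10 genes every SPORTS array lay above every wild type array, and in 6 every SPORTS array lay below, where 24.8% and 22.3% of all genes (47.1% together) had such a separation. The median difference of the 30 genes was 0.05, against 0.01 for all tested genes. Under the row block, the calls were Camp and Ptprc (higher) and Tmem119 and Fcrl2 (lower), and row 2 alone gave the same 4. Without SPORTS replicate 1 there were 5 higher and 2 lower calls. In RNA of whole tissue, fewer cells of a type and less RNA of a gene per cell cannot be told apart.

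**Figure D1:**
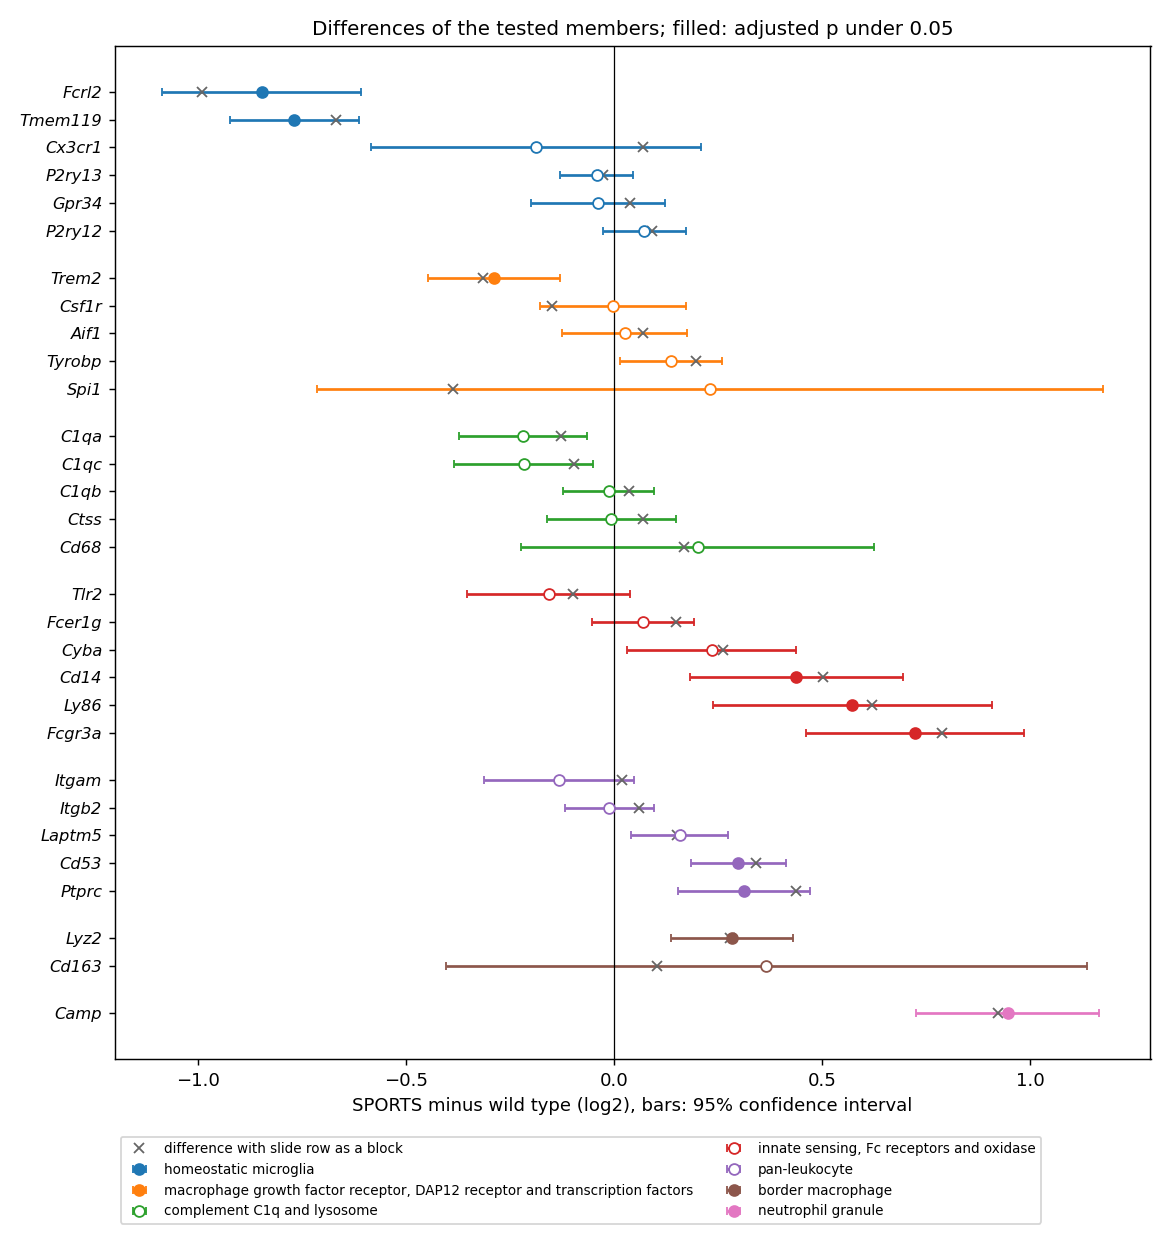
Difference between SPORTS and wild type (horizontal axis, log2, SPORTS minus wild type) for each tested member gene, grouped by role, with the 95% confidence interval of the limma fit as bars; filled points passed the test at an adjusted p of 0.05, and crosses give the difference with the slide row as a block. Tmem119 and Fcrl2 stand left of zero at -0.77 and -0.85, and Camp and Fcgr3a right of it at 0.95 and 0.72. The other members lie between Trem2 at -0.29 and Ly86 at 0.57.

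Among the 6 homeostatic genes, Tmem119 and Fcrl2 were lower in SPORTS and the other 4 were not called, beside 11.4% of all tested genes called lower. Tmem119, a transmembrane protein that in adult brain marks microglia and not border macrophages, had signals of -1.86, -1.77 and -1.72 in SPORTS and -0.99, -0.94 and -1.12 in wild type on its brighter probe. The highest SPORTS array lay below the lowest wild type array. The difference was -0.77 ± 0.06 (SE), a 1.70-fold lower signal in SPORTS (adjusted p = 0.00127). A separate probe of the same transcript gave -3.03, -3.06 and -3.07 in SPORTS and -2.41, -2.50 and -2.43 in wild type, again without overlap, with a difference of -0.61 ± 0.04 (adjusted p = 0.000602). Blocked on slide row, these probes differed by -0.67 and -0.63 (adjusted p = 0.014 and 0.00996).

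Fcrl2, an Fc receptor-like gene also listed as Fcrls, a name under which it is known as a microglia marker in mouse, had signals of -2.32, -2.48 and -2.62 in SPORTS and -1.72, -1.67 and -1.49 in wild type. All 3 SPORTS rats were below all 3 wild type rats. The signal was 1.80-fold lower in SPORTS, with a difference of -0.85 ± 0.10 (adjusted p = 0.00352), and the row block gave -0.99 (adjusted p = 0.0177). Tmem119 and Fcrl2 kept their calls under all 17 alternative settings, with adjusted p up to 0.0322 and 0.0415.

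P2ry12, the ADP receptor through which microglial processes move toward injury, had signals of -0.05, 0.03 and -0.0019 in SPORTS and -0.10, -0.03 and -0.10 in wild type. Its difference was 0.07, with a 95% confidence interval of -0.03 to 0.17, so a fall of the size seen for Tmem119 lies outside the interval. The related nucleotide receptor P2ry13 differed by -0.04 (interval -0.13 to 0.05), and Gpr34, a receptor for lysophosphatidylserine, by -0.04 (interval -0.20 to 0.12). Cx3cr1, the receptor for the neuronal chemokine fractalkine, varied more between rats: 0.34, 0.60 and 0.83 in SPORTS and 0.90, 0.92 and 0.52 in wild type. The groups overlapped, and the difference of -0.19 ± 0.16 did not pass (adjusted p = 0.468).

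Gaps between homeostatic genes within an array restate these differences without the scaling of the array, and they are given as a description because the genes were picked by their calls. The gap between Tmem119 and P2ry12, set to a mean of zero in wild type, was -0.87, -0.87 and -0.78 in SPORTS and 0.05, 0.03 and -0.08 in wild type. The same gap for Fcrl2 was -0.72, -0.97 and -1.07 in SPORTS and -0.07, -0.09 and 0.16 in wild type. Both gaps were lower in each SPORTS array than in any wild type array. The median difference of the 6 genes was -0.11, against 0.01 for all genes, and the row block turned it to 0.01.

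**Figure D2:**
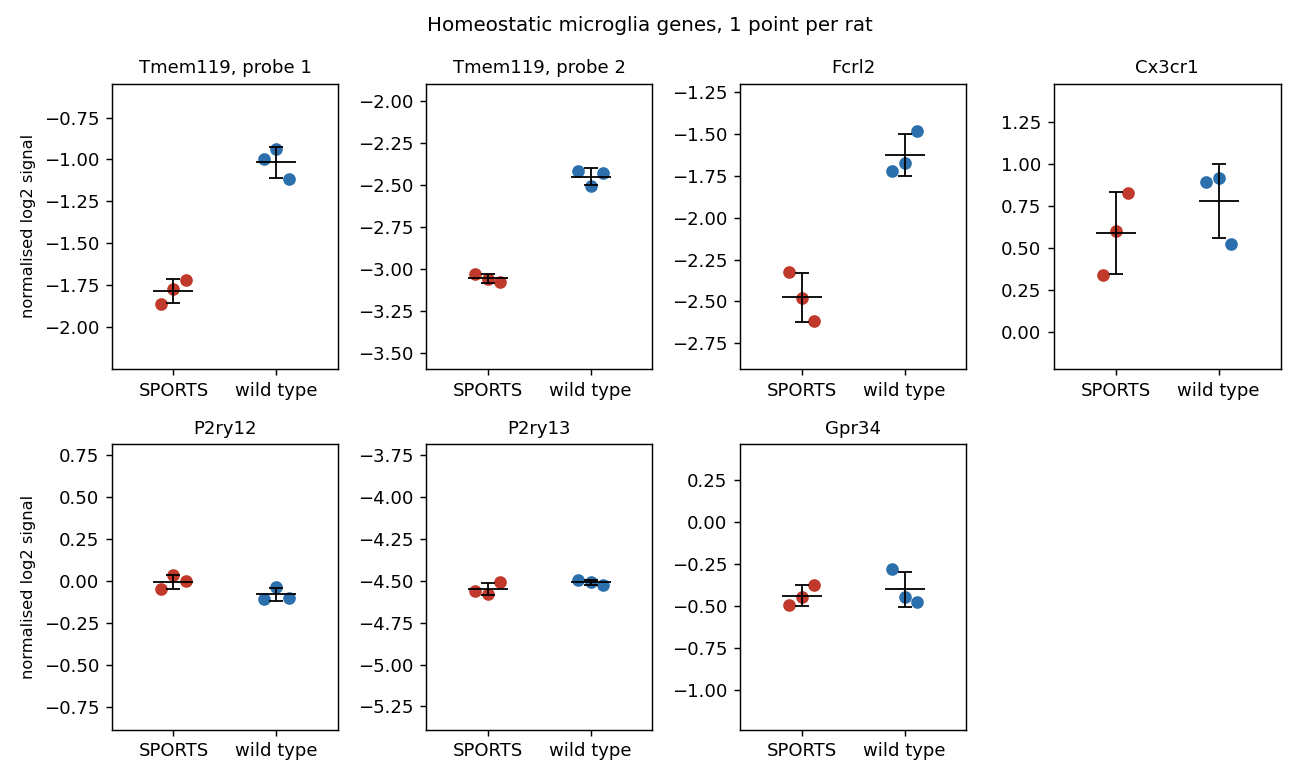
Normalised log2 signal (vertical axis, the same span in every panel) of the 6 homeostatic microglia genes, with both Tmem119 probes, in SPORTS (left) and wild type (right); each point is 1 rat, with the mean and SD (n = 3 each). Both Tmem119 probes and Fcrl2 separate the groups, P2ry12, P2ry13 and Gpr34 differ by 0.07 or less, and Cx3cr1 overlaps.

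Among the growth factor receptor, DAP12 pair and transcription factors, 1 of 5 tested genes was lower in SPORTS and 0 were higher, with a median difference of 0.03. The shares over all tested genes were 11.4% lower and 12.9% higher. Trem2, the lipid-sensing receptor that signals through DAP12, had signals of 0.56, 0.50 and 0.48 in SPORTS and 0.90, 0.68 and 0.83 in wild type, without overlap. The difference was -0.29 ± 0.06, 1.22-fold lower (adjusted p = 0.0287). The call was lost with the row block (adjusted p = 0.134), with no filter on dim probes (0.0814), without wild type replicate 1 (0.0662) or 3 (0.0815), and without SPORTS replicate 1 (0.0594), 2 (0.0899) or 3 (0.0928). Tyrobp, which encodes DAP12 itself, had signals of 1.47, 1.36 and 1.46 in SPORTS and 1.36, 1.29 and 1.23 in wild type. Every SPORTS array lay above every wild type array, with 1.365 as the lowest SPORTS and 1.356 as the highest wild type signal. The difference of 0.14 ± 0.05 did not pass (adjusted p = 0.112).

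Csf1r, the receptor that microglia need to survive, and Aif1, which encodes the actin-binding protein IBA1 used to stain microglia, differed little. For Csf1r the brighter probe had signals of -1.08, -1.05 and -1.12 in SPORTS and -1.12, -1.19 and -0.93 in wild type, which overlap (adjusted p = 0.986, interval -0.18 to 0.17). Its other probe differed by 0.14 (adjusted p = 0.122). Both Aif1 probes differed by 0.03, with intervals of -0.09 to 0.15 and -0.13 to 0.18.

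Spi1 encodes PU.1, the factor on which the macrophage lineage depends, and Irf8 encodes a factor that pairs with it. Spi1 had signals of -4.56, -4.75 and -4.62 in SPORTS and -5.77, -4.59 and -4.26 in wild type. Wild type replicate 1 lay far below the other arrays, the difference was 0.23 ± 0.38 (adjusted p = 0.719), and without that array it was -0.22. Irf8 was well above background on 0 SPORTS arrays and 1 wild type array and was not tested.

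The promoter windows of the members are shown because PU.1 binds a short purine-rich core and the members include genes that were higher, lower and not called. RefSeq windows on assembly GRCr8, from 250 bases before to 50 bases after the start of each gene, were found for 24 of the 35 genes. Of the called genes, Tmem119, Fcrl2 and Ly86 had no window, so Trem2 was the only lower gene with one. The core searched was GAGGAA, on both strands. It was present in 16 of the 24 windows (66.7%), against 27.6% of all 33469 windows of this length. Its longer form GAGGAAGT, which contains the core, was present for Cd53, Ctss and Fcgr3a (12.5%, against 2.42% of all windows). The pattern GGAANNGAA, which can overlap the core, was present for Cd14, Cd68, Ctss and Cybb (16.7%, against 9.32%). CCAAT, searched for comparison, was in 54.2% of member windows and 37.5% of all windows. These matches describe letters in the windows and not binding.

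Of the 5 windows printed here, Cd53, Fcgr3a and Camp belong to genes that were higher in SPORTS, Trem2 to a gene that was lower and Ctss to one that was not called. Capitals mark the core GAGGAA, which in these windows lies on the opposite strand and reads TTCCTC. The windows are chr2:197087847-197088146 on the minus strand for Cd53, chr13:85782386-85782685 on the plus strand for Fcgr3a, chr8:118721949-118722248 on the minus strand for Camp, chr9:20151730-20152029 on the minus strand for Trem2 and chr2:185775146-185775445 on the plus strand for Ctss, each written along the strand of its gene.
Cd53: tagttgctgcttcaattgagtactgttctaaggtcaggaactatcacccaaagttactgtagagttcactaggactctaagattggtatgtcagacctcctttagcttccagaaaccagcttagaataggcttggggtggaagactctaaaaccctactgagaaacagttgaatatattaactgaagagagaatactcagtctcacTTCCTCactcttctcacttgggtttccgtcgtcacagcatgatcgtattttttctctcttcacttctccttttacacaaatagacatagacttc
Fcgr3a: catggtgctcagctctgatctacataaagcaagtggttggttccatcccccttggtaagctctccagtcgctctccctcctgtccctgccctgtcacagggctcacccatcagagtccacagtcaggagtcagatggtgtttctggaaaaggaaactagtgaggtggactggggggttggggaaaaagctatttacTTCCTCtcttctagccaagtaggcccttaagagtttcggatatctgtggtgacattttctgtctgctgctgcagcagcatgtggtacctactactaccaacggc
Camp: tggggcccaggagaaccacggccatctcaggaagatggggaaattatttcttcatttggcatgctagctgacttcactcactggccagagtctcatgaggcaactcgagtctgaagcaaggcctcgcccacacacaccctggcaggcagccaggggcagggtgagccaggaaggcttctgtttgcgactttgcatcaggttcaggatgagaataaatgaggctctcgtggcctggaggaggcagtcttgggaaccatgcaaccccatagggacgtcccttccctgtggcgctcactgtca
Trem2: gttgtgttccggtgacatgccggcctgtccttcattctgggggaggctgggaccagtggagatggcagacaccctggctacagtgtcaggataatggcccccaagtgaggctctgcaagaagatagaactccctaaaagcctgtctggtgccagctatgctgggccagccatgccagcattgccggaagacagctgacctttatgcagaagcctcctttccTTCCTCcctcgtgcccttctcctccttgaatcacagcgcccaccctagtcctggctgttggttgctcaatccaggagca
Ctss: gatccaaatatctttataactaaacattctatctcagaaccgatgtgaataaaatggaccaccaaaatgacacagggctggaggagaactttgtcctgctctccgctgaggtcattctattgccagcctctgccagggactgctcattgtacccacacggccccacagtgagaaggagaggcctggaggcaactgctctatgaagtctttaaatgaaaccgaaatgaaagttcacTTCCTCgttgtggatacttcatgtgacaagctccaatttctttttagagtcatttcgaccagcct
The core begins at position -44 before the start for Cd53, -54 for Fcgr3a, -29 for Trem2 and -15 for Ctss. In Cd53, Fcgr3a and Ctss the capitals are preceded by the bases ac, which complete the longer form. The Camp window holds no match to any of the patterns searched.

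Of the 5 complement C1q and lysosome genes 0 were called by limma, beside 24.3% of all tested genes. An unadjusted p under 0.05 was found for 2 of them, and the median difference was -0.01. C1qa, C1qb and C1qc encode the chains of C1q, the starter of the classical complement pathway, which in brain is made mostly by microglia. C1qa had signals of 1.65, 1.61 and 1.74 in SPORTS and 1.98, 1.88 and 1.79 in wild type, and C1qc had -0.93, -1.08 and -0.99 in SPORTS and -0.72, -0.72 and -0.90 in wild type. For both, every SPORTS array lay below every wild type array, yet differences of -0.22 each missed the threshold (adjusted p = 0.0582 and 0.0747). They passed with a trended and robust variance model (adjusted p = 0.0168 for C1qa and 0.0317 for C1qc) and without wild type replicate 3 (0.0487 and 0.0367), and C1qa also with normexp background correction (0.0266). With the row block the differences were -0.13 and -0.10. C1qb differed by -0.01 (interval -0.12 to 0.10).

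The lysosomal cysteine protease gene Ctss differed by -0.01 (interval -0.16 to 0.15). Cd68, a lysosomal membrane protein of phagocytes, had signals of -2.31, -2.46 and -2.25 in SPORTS and -2.22, -2.90 and -2.51 in wild type. Wild type was the more scattered group, the ranges overlapped, and the difference was 0.20 ± 0.17 (adjusted p = 0.464).

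Of the 8 genes of innate sensing, Fc receptors and the oxidase, 6 were tested, 3 were higher in SPORTS and 0 were lower, with a median difference of 0.34. Beside these counts, 12.9% of all tested genes were higher and 11.4% lower. Fcgr3a, a receptor for the Fc part of immunoglobulin G, had signals of -3.06, -3.42 and -3.08 in SPORTS and -3.84, -3.91 and -3.97 in wild type. The groups did not overlap, and the signal was 1.65-fold higher in SPORTS (difference 0.72 ± 0.11, adjusted p = 0.00767). With the row block the difference was 0.79 and just missed the threshold (adjusted p = 0.0548).

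Ly86 encodes MD-1, a partner of the Toll-like receptor relative CD180. Its brighter probe had signals of -2.90, -2.40 and -2.77 in SPORTS and -3.15, -3.33 and -3.31 in wild type, without overlap. The difference was 0.57 ± 0.14, 1.49-fold higher (adjusted p = 0.0343). Its other probe had -2.76, -3.49 and -3.31 in SPORTS and -3.71, -3.73 and -3.76 in wild type. That probe was also higher in every SPORTS array, by 0.55 ± 0.18, and did not pass (adjusted p = 0.0924). The call of the brighter probe was lost with the row block (adjusted p = 0.156), with median centring (0.0594), with no filter on dim probes (0.0923), without wild type replicate 1 (0.0606), 2 (0.0987) or 3 (0.0941), and without SPORTS replicate 3 (0.0774).

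Cd14, the co-receptor that hands bacterial lipopolysaccharide to TLR4, had signals of -3.70, -4.06 and -3.74 in SPORTS and -4.23, -4.25 and -4.34 in wild type. The groups did not overlap, and the difference was 0.44 ± 0.10, 1.36-fold higher in SPORTS (adjusted p = 0.034). The call was lost with the row block (adjusted p = 0.133), with no filter (0.0922), without wild type replicate 1 (0.0749), 2 (0.0845) or 3 (0.0957), and without SPORTS replicate 1 (0.0919) or 3 (0.105). Tlr2, the receptor for bacterial lipopeptides, ran the other way, with -1.40, -1.55 and -1.38 in SPORTS and -1.15, -1.37 and -1.35 in wild type. Its SPORTS arrays were all lower, and the difference of -0.16 ± 0.08 did not pass (adjusted p = 0.226).

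Fcer1g, the signalling chain shared by several Fc receptors, differed by 0.07 and 0.11 on its 2 probes (adjusted p = 0.383 and 0.177). Cyba, the membrane subunit of the phagocyte oxidase that is also made by other brain cells, had 1.53, 1.24 and 1.29 in SPORTS and 1.17, 1.09 and 1.09 in wild type. It was higher in every SPORTS array by 0.23 ± 0.08 without passing (adjusted p = 0.102), and it passed with normexp background correction (adjusted p = 0.042). Its partner Cybb was not well above background on any array. Tlr4 was well above background on 2 arrays of each group and was not tested.

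Of the 5 pan-leukocyte genes, 2 were higher in SPORTS and 0 were lower, with a median difference of 0.16, beside 12.9% higher and 11.4% lower of all tested genes. Cd53, a tetraspanin of leukocyte membranes, had signals of -0.83, -0.93 and -0.85 in SPORTS and -1.11, -1.19 and -1.21 in wild type. The groups did not overlap, and the signal was 1.23-fold higher in SPORTS (difference 0.30 ± 0.05, adjusted p = 0.00918). The row block gave 0.34 and missed the threshold narrowly (adjusted p = 0.0505).

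Ptprc encodes CD45, the membrane phosphatase of all nucleated blood cells. Its signals were -3.86, -3.90 and -3.82 in SPORTS and -4.14, -4.08 and -4.30 in wild type, without overlap. The difference was 0.31 ± 0.06, 1.24-fold higher (adjusted p = 0.0223), and 0.44 with the row block (adjusted p = 0.0235). The call was lost with quantile normalisation (adjusted p = 0.0652), median centring (0.0649), no filter (0.0669), outlier spots kept (0.0821, where the difference was 0.52), without wild type replicate 1 (0.054), and without SPORTS replicate 1 (0.0672), 2 (0.0567) or 3 (0.0762). Its other probe was not well above background on any array.

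Laptm5, a lysosomal membrane protein of blood cells, had 2.02, 1.97 and 1.97 in SPORTS and 1.89, 1.76 and 1.84 in wild type. It was higher in every SPORTS array by 0.16 ± 0.05 and did not pass (adjusted p = 0.0667). The integrin chains of complement receptor 3 were not called: Itgb2, its beta chain, differed by -0.01 (interval -0.12 to 0.10), and Itgam, its alpha chain CD11b, by -0.13 (interval -0.31 to 0.05).

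Of the 4 border macrophage genes, 2 were tested. Lyz2, a lysozyme abundant in myeloid cells, had signals of 2.65, 2.52 and 2.45 in SPORTS and 2.24, 2.26 and 2.26 in wild type. The groups did not overlap, and the signal was 1.22-fold higher in SPORTS (difference 0.28 ± 0.06, adjusted p = 0.023). The call was lost with the row block (adjusted p = 0.147), with no filter (0.0688), without wild type replicate 1 (0.0668), 2 (0.0636) or 3 (0.0627), and without SPORTS replicate 2 (0.0668). Cd163, the scavenger receptor for haemoglobin bound to haptoglobin, had -3.70, -4.38 and -4.23 in SPORTS and -5.09, -4.11 and -4.21 in wild type. The ranges overlapped, and the difference of 0.37 ± 0.31 did not pass (adjusted p = 0.465). Mrc1, the mannose receptor and a defining marker of border macrophages, was not well above background on any array. Cd4, which rat macrophages also express, was well above background on 2 arrays of each group and was not tested.

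Camp, which encodes the cathelicidin antimicrobial peptide stored in neutrophil granules and also made by some macrophages and epithelia, had the largest called difference among the 35 genes. Its signals were -3.59, -3.82 and -3.76 in SPORTS and -4.81, -4.55 and -4.65 in wild type. Every SPORTS array was above every wild type array, and the signal was 1.93-fold higher in SPORTS (difference 0.95 ± 0.09, adjusted p = 0.00194). The row block gave 0.92 (adjusted p = 0.0281), and the call held under all 17 alternative settings (adjusted p up to 0.036).

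**Figure D3:**
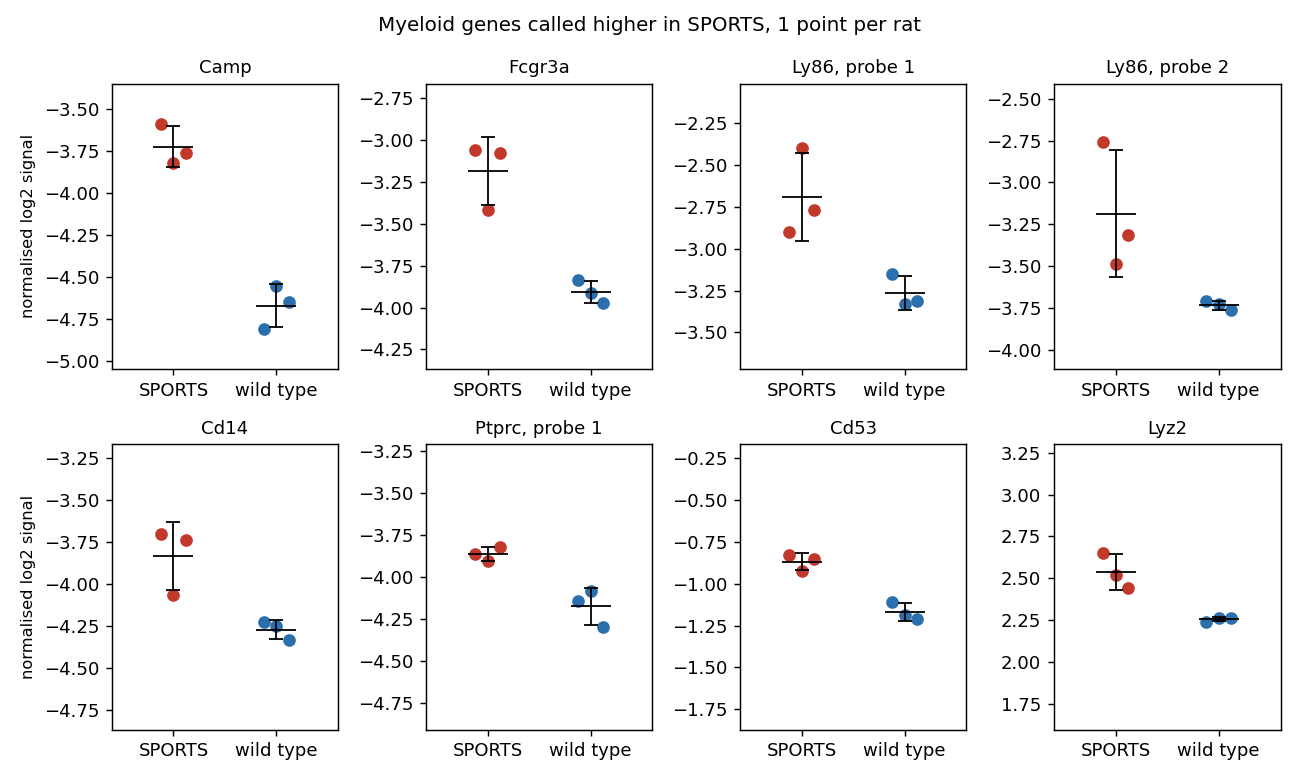
Normalised log2 signal (vertical axis, the same span in every panel) of the 7 member genes that were higher in SPORTS, with both probes of Ly86, in SPORTS (left) and wild type (right); each point is 1 rat, with the mean and SD (n = 3 each). The groups do not overlap in any panel, and the differences range from 0.28 for Lyz2 to 0.95 for Camp.

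Camp was set beside markers of neutrophils. Of 16 such markers 3 were tested: Lcn2, an iron-binding granule protein, was higher in SPORTS, and S100a8 and S100a9, which differed by 0.80 and 0.68, did not pass. For comparison, 12.9% of all tested genes were called higher. Lcn2 was well above background on 3 SPORTS arrays and 1 wild type array, and S100a8 on 3 and 2. Both therefore entered the test, and the sum below, only through the group where they were higher. The Lcn2 call was lost with the row block (adjusted p = 0.158), with no filter (0.0564) and without SPORTS replicate 1 (0.0604) or 3 (0.0647). The summed signal of the list was -2.40, -2.96 and -2.69 in SPORTS and -3.75, -3.36 and -3.59 in wild type. The granule genes Ngp, Ltf, Elane, Mmp8, Np4 and Defa5 and the chemokine receptor gene Cxcr2 were not well above background on any array. The part of neutrophils in the Camp difference was not tested.

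Set side by side, the homeostatic genes had a median difference of -0.11, with 0 higher and 2 lower calls. The 7 tested pan-leukocyte and border macrophage genes had a median of 0.28, with 3 higher and 0 lower calls. Over all tested genes the median was 0.01, and 12.9% were called higher and 11.4% lower. The mean of the homeostatic genes, relative to its wild type mean, was -0.35, -0.30 and -0.26 in SPORTS and 0.03, 0.03 and -0.05 in wild type. The mean of the pan-leukocyte and border macrophage genes was 0.26, 0.12 and 0.16 in SPORTS and -0.05, 0.07 and -0.02 in wild type. The first minus the second was -0.61, -0.42 and -0.42 in SPORTS and 0.07, -0.04 and -0.04 in wild type. The groups did not overlap in this contrast, which is a description, because its genes were chosen with earlier results of these data known. Taken singly, 47.1% of all tested genes had such a separation, a share that holds for single genes and not for means of chosen ones. Within the homeostatic mean, Tmem119 and Fcrl2 differed by -0.77 and -0.85 and were called. The other 4 differed by -0.19 to 0.07 and were not. Under the row block, the medians were 0.01 for the homeostatic genes and 0.15 for the pan-leukocyte and border macrophage genes. Without SPORTS replicate 1 they were -0.05 and 0.16, and without wild type replicate 1 the second was 0.19.

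Markers of other cells, including those that hold or adjoin leukocytes, were counted in the same way. The shares to set beside them are 12.9% higher and 11.4% lower of all tested genes, and 4.03% and 4.31% with the row block. Of 15 tested fibroblast and meningeal markers, 10 were higher and 1 was lower in SPORTS, with a median difference of 0.46, and their summed signal was 6.33 to 6.65 in SPORTS and 6.05 to 6.15 in wild type. Dcn, a collagen-binding proteoglycan, differed by 1.12 ± 0.05 (adjusted p = 0.000143). Lum, 1 of the 10 higher genes, was well above background on 3 SPORTS and 2 wild type arrays, so it was tested only through SPORTS. Of 12 endothelial markers 3 were higher and 0 lower (median 0.21). Of 6 tested red cell markers 3 were higher and 0 lower (median 0.32). Among those 3, Hba-a3 was well above background on 3 SPORTS and 0 wild type arrays, so it was tested only through SPORTS. Hbb, Hba-a1 and Alas2 differed by 0.08, 0.03 and 0.09 and were not called. Of 6 tested T and NK cell markers 1 was higher and 1 lower (median -0.05). Of 3 tested B cell markers 1 was higher, Vpreb1b, likewise well above background on 3 SPORTS and 0 wild type arrays. Of 2 tested mast cell markers 1 was higher, Kit, by 0.525. Cpa3, Cma1, Mcpt1, Fcer1a and Ms4a2 of the mast cell list were not well above background on any array. Higher and lower calls numbered 4 and 0 among 10 astrocyte markers (median 0.17), 4 and 0 among 10 oligodendrocyte markers (median 0.11), 2 and 2 among 9 neuron markers (median -0.03) and 2 and 1 among 8 pericyte and smooth muscle markers (median 0.08). With the row block these counts were 6 and 1 for fibroblast and meningeal, 0 and 1 for endothelial, 2 and 0 for red cell, 1 and 1 for T and NK cell, 1 and 1 for B cell and 1 and 0 for oligodendrocyte markers, and 0 and 0 for mast cell, astrocyte, neuron and pericyte and smooth muscle markers. Of 9 choroid plexus markers 0 were called by limma and 0 had an unadjusted p under 0.05, with a median of -0.35, in a list in which SPORTS replicate 1 stood apart. The part of meninges, vessels or blood in the pan-leukocyte and border macrophage differences was not tested.

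**Figure D4:**
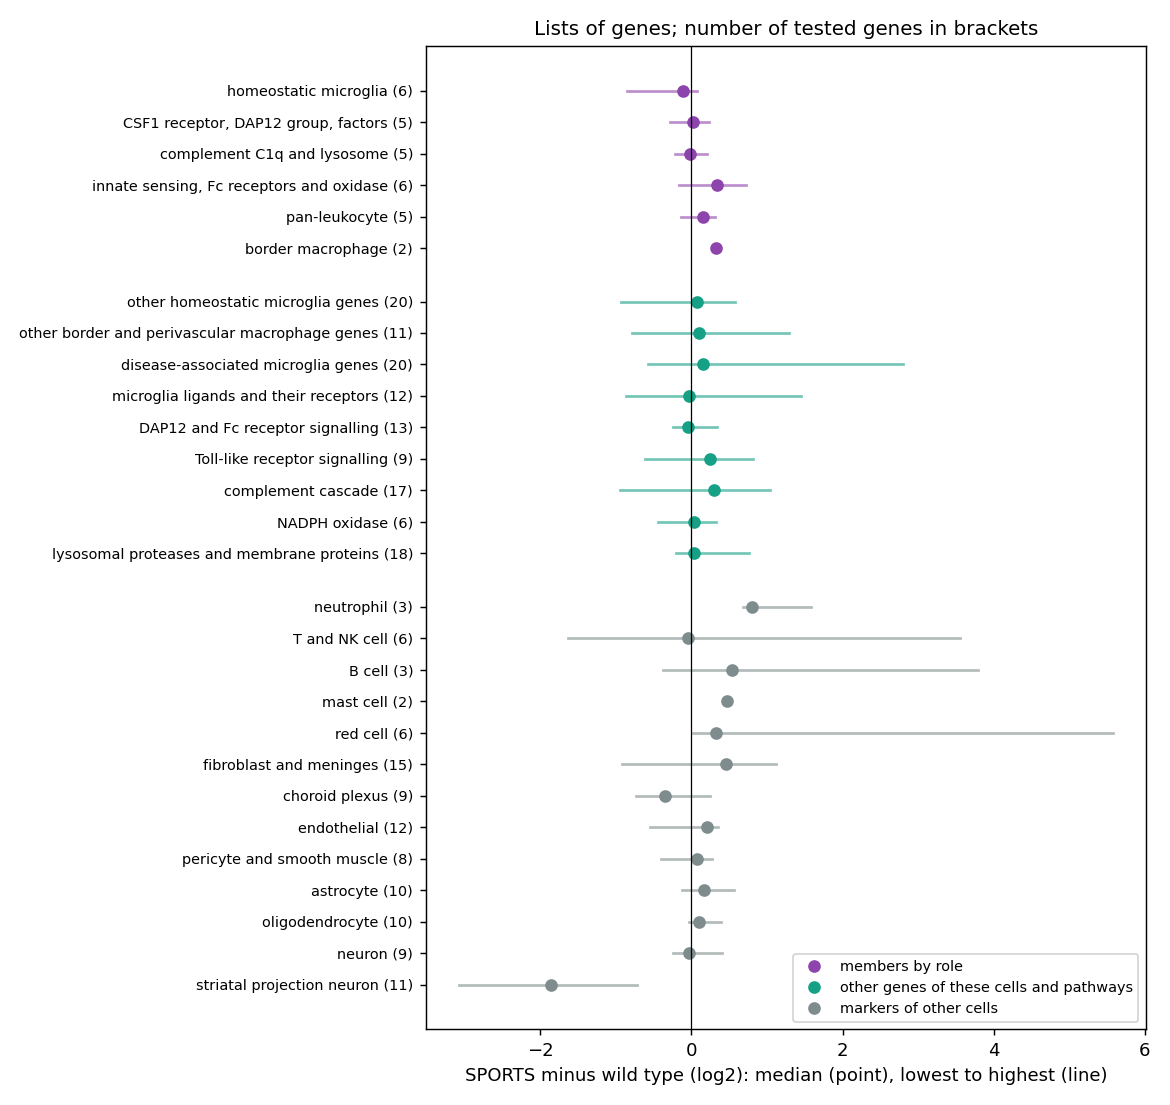
Difference between SPORTS and wild type (horizontal axis, log2, SPORTS minus wild type) for the member groups, other lists of the same cells and pathways, and markers of other cells, with the number of tested genes in brackets; the point is the median of a list and the line runs from its lowest to its highest gene. The fibroblast and meningeal list has its median at 0.46 and the striatal list at -1.86, while the DAP12 and Fc receptor signalling list has its median at -0.04 and 0 calls.

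Other genes of the same cells and pathways were counted over whole lists. The genes named from them are those with the largest called differences, apart from those named to show a limit. For each of these lists, the shares over all tested genes are 12.9% higher and 11.4% lower, and 4.03% and 4.31% with the row block. Among 20 other tested genes of homeostatic microglia, 5 were higher and 1 was lower (median 0.08), and 0 were called with the row block. The largest called difference was that of Olfml3, a secreted matrix protein of microglia, with -0.10, -0.36 and -0.30 in SPORTS and -0.86, -0.85 and -0.81 in wild type, a difference of 0.58 ± 0.07 (adjusted p = 0.0046, and 0.0549 with the row block). All 3 SPORTS arrays were above wild type, opposite in direction to Tmem119. Among 11 other tested border macrophage genes, 4 were higher and 2 lower (median 0.11), and 2 and 1 with the row block. The largest called difference was that of the scavenger receptor Cd36 at -0.78 ± 0.11 (adjusted p = 0.007), and it was -0.90 with the row block. Cd36 was well above background on 2 SPORTS and 3 wild type arrays, so it was tested only through the group where it was higher. The same held for F13a1, 1 of the 4 higher genes, on 3 SPORTS and 2 wild type arrays.

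Genes of the disease-associated state of microglia, described in mouse models of neurodegeneration, had 8 higher and 3 lower calls among 20 tested genes (median 0.15), and 1 higher and 0 lower with the row block. Spp1, which encodes osteopontin and is also made by other brain cells, had -0.28, -0.76 and -0.88 in SPORTS and -4.26, -2.68 and -3.38 in wild type, without overlap and 6.95-fold higher in SPORTS (difference 2.80 ± 0.41, adjusted p = 0.00755, and 0.0738 with the row block). Ch25h, cholesterol 25-hydroxylase, was 1.83-fold higher (0.87 ± 0.14, adjusted p = 0.00976, and 0.0649 with the row block). Trem2, through which this state is reached in mouse, was the lower gene described above.

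Of 12 tested ligands that act on microglia and their receptors, 1 was higher and 3 were lower (median -0.03), and 0 were called with the row block. Cx3cl1, the neuronal ligand of Cx3cr1, had 5.29, 5.31 and 5.27 in SPORTS and 5.62, 5.51 and 5.61 in wild type. All SPORTS arrays were lower, by 0.29 on the log2 scale (difference -0.29 ± 0.04, adjusted p = 0.00725, and 0.0527 with the row block), beside the overlap of Cx3cr1 itself. Cd200r1, the inhibitory receptor for neuronal CD200, differed by -0.86 ± 0.12 (adjusted p = 0.00584, and 0.053 with the row block). The chemokine Ccl2 differed by 1.44 ± 0.38 (adjusted p = 0.0463), a call lost when any of the 6 arrays was left out (adjusted p 0.0525 to 0.109). Cd200r1 was well above background on 2 SPORTS and 3 wild type arrays, and Ccl2 on 3 SPORTS and 2 wild type arrays. Each was therefore tested only through the group where it was higher.

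Among 13 tested genes of DAP12 and Fc receptor signalling 0 were called by limma and 3 had an unadjusted p under 0.05 (median -0.04). Toll-like receptor signalling had 3 higher and 1 lower call among 9 tested genes (median 0.24), and 1 of each with the row block. Its largest called differences were those of the ubiquitin ligase Traf6 at 0.82 ± 0.05 (adjusted p = 0.000348) and of Irak3, an inhibitor of the pathway, at -0.61 ± 0.06 (adjusted p = 0.00197). The rest of the complement cascade had 6 higher and 1 lower call among 17 tested genes (median 0.30), and 2 and 1 with the row block. Its largest called difference was that of Serping1, the C1 inhibitor, with 0.95, 0.76 and 0.85 in SPORTS and -0.08, -0.24 and -0.26 in wild type, 2.06-fold higher in SPORTS (1.05 ± 0.07, adjusted p = 0.00069). Cd46, the lower gene, was well above background on 2 SPORTS and 3 wild type arrays, so it was tested only through wild type. The NADPH oxidase list, which shares Cyba and Cybb with the members, had 1 higher and 1 lower call among 6 tested genes (median 0.04), and 1 and 0 with the row block. Of 18 lysosomal genes 4 were higher and 1 was lower (median 0.04), and 1 and 0 with the row block. The largest called difference was that of the protease Ctsc at 0.76 ± 0.04 (adjusted p = 0.000303).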

How the data were processed

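The members and all gene lists were chosen with earlier results of these data known, so no list is tested as a whole. Per the file headers, the authors deposited scanner output of Agilent Feature Extraction 10.10.1.1, whose processed signal is an intensity on a linear scale with background subtracted and no scaling between arrays. The authors also deposited intensity values of all samples together, equal to the scanner values times a single factor per array (1.38 to 1.47) and holds 0 columns of other samples; no source used here states how the factors were chosen.

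Of 62976 spots 58717 were not controls, and 3075 outlier-flagged spot values were left out. The log2 intensity, computed here, was set relative to each array's 75th percentile (1530 to 1628 intensity units), and spots of a probe were averaged. Testing required over 0.5 of a probe's spots to be flagged well above background on every array of 1 group, which kept 20657 probes. Groups of 3 SPORTS and 3 wild type arrays, 1 rat each, were compared with limma 3.58.1 in R 4.3.3 (file reading by the R package data.table, release 1.17.8), two-sided, with Benjamini-Hochberg adjustment over all tested probes and a threshold of 0.05. The procedure was tested on simulated data. Errors of differences are SE. Precision is limited by the number of arrays. A gene is its brightest tested probe. Symbols came from RefSeq accessions of the probes (13089 tested probes, 11032 genes), since the files hold no gene name column; probes are given no positions, because the array design and the RefSeq list use different builds, and the printed promoter windows carry those of RefSeq on GRCr8. Summed signals of a list are the log2 of its summed linear signals. Every member is named, with array values for those that passed or differed by at least 0.3, and at most 3 called genes of each other list, those with the largest differences. Further genes of a list are named only to show a limit: those not called, those that went the other way and those tested through 1 group. Replicates are numbered only as names. Alternatives were other scalings, background correction, the deposited table, other filters, outlier spots kept, a trended and robust variance, the slide row as a block or row 2 alone, averaging the probes of a gene, changed subgroup memberships, and leaving out each array. Tables were handled with pandas 2.3.3 and figures drawn with matplotlib 3.10.9.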

Additional observations from a re-analysis of the deposited data

How the results depend on the processing

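No paired analysis was possible because the groups share only 1 number in the sample titles. Of 510 member results under alternatives, 426 kept direction and side of the threshold, 43 lost and 8 gained the call, and 33 turned sign; Camp, Tmem119 and Fcrl2 kept their calls under all 17. Higher members numbered 7, against 3 with no filter on dim probes, 2 with the slide row as a block, 2 on row 2 alone and 3 to 5 with 1 array left out. Lower members numbered 3, against 5 with a trended and robust variance and 2 to 5 with 1 array left out. Over all genes, 1424 were higher and 1257 lower, against 768 and 676 with no filter, 445 and 475 with the block, 352 and 337 on row 2 alone, and 839 to 1075 and 678 to 928 with 1 array left out. The homeostatic median of -0.11 was 0.00576 with the block or row 2 alone and -0.20 to -0.0484 with 1 array left out. The pan-leukocyte and border median of 0.28 was 0.18 with normexp, 0.15 with the block or row 2 alone, and 0.16 to 0.29 with 1 array left out. Sign turned, with no call on either side, in the members that follow. With the block or row 2 alone the differences were 0.069 (Cx3cr1), 0.038 (Gpr34), -0.39 (Spi1), 0.036 (C1qb), 0.070 (Ctss), 0.060 (Itgb2) and 0.020 (Itgam). Under scaling and spot choices they were, for Csf1r, 0.016 with normexp, 0.00708 with the deposited table and 0.069 as the mean of probes; for Aif1, -0.015 with median centring; for C1qb, 0.00140 with quantile normalisation; for Cd68, -0.21 with outlier spots kept; and for Ctss, 0.00936 with quantile normalisation, 0.025 with normexp and 0.00311 with the deposited table. With 1 array left out, the ranges were -0.0756 to 0.0219 for Gpr34, -0.056 to 0.071 for Csf1r, -0.032 to 0.070 for Aif1, -0.22 to 0.54 for Spi1, -0.041 to 0.011 for C1qb, -0.0447 to 0.0581 for Ctss and -0.047 to 0.013 for Itgb2. The causes were not tested. Signal limits 5 members, Irf8, Tlr4, Cybb, Mrc1 and Cd4, which were too dim to test.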

Other observations

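The 5 genes outside the members whose signal followed the mean of the homeostatic genes most closely over the 6 arrays were Mzt2b, Tpst2, Tpx2, Coro7 and Lrrc10b (Pearson's r 0.999, 0.998, 0.998, 0.997 and 0.996). This is a description over 6 arrays that share their group difference and slide, among 11032 genes. All 5 were lower in SPORTS: Lrrc10b had signals of -3.47, -3.11 and -2.99 in SPORTS and -1.83, -1.90 and -2.17 in wild type, and Mzt2b had -2.36, -2.27 and -2.19 in SPORTS and -1.73, -1.75 and -1.85 in wild type. In the T and NK cell list, Foxp3, a transcription factor of regulatory T cells, had -1.39, -1.31 and -1.31 in SPORTS and -5.19, -4.94 and -4.53 in wild type, 11.7-fold higher in SPORTS (difference 3.55 ± 0.16, adjusted p = 0.000194), while Cd247, Cd2, Cd8a, Cd28, Trat1, Gzmb and Klrb1a of the same list were not well above background on any array. Zap70, a kinase of T cell receptor signalling in that list, went the other way with a difference of -1.63 ± 0.04 (adjusted p = 4.42e-05). The other tested genes of the list, Cd3d, Cd8b, Lck and Nkg7, differed by -0.06, -0.04, -0.13 and 0.08 and were not called.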
